A study of Homo sapiens with 36 samples.

Results

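A498 is an established human line of clear cell renal cell carcinoma, the commonest form of kidney cancer. Parental A498 cells, labelled as carrying no drug resistance, were exposed to durvalumab or to atezolizumab, and the messenger RNA of the cells was sequenced. The comparison rests on 6 libraries of the 36 in the series, 3 with durvalumab and 3 with atezolizumab, taken by the labels of line, resistance and treatment with no measured value in the choice. The labels give a dose of 10 mg/mL, a unit that may be a slip and could not be checked here, and an exposure of 24 h for every antibody, and the 6 libraries carry the same batch label. The 3 avelumab libraries of the same cells and batch entered the fit as well, so that the 3 antibodies share an estimate of the spread. The same antibodies in parental 786-O cells, another line of this cancer, with 3 libraries each for durvalumab and atezolizumab, serve as the outside comparison. All these cells were cultures of a single tumour line in medium with foetal bovine serum, and untreated cells were not analysed here. A difference therefore says how durvalumab-treated cells stood relative to atezolizumab-treated cells, and a rise under the first cannot be told apart from a decline under the second. No label states whether replicate libraries were grown as separate cultures. The p-values therefore reflect only the spread among these libraries, part or all of which may be technical.

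PD-L1, the product of CD274, is a surface protein by which tumour cells restrain T cells through the receptor PD-1. Durvalumab, atezolizumab and avelumab are antibodies that bind PD-L1 and keep it from PD-1. The Fc parts of durvalumab and atezolizumab were altered to reduce binding to Fc gamma receptors, whereas avelumab has an unaltered Fc part. In renal carcinoma cells, interferon signalling raises PD-L1 together with antigen presentation genes, and loss of the VHL protein keeps hypoxia-inducible factors active.

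The libraries held 30642602 to 49099068 counts with durvalumab and 28423573 to 34080783 with atezolizumab, in a series that ran from 19994882 to 58122896. On the first principal component of the 9 A498 parental libraries, which held 21.3% of the variance, the durvalumab libraries lay at 8.06, 4.58 and 9.20 and the atezolizumab libraries at -10.3, -22.0 and -11.9. The avelumab libraries lay at -3.01, 6.71 and 18.6 and overlapped the durvalumab ones. PAX8, a kidney lineage factor, averaged 246 CPM with durvalumab and 220 CPM with atezolizumab, and 21 of 22 renal markers had enough counts to be tested. LRP2, a proximal tubule receptor, had 2 counts over the durvalumab libraries and 3 over the atezolizumab libraries. All 10 genes listed as high in A498 among the study's lines were tested. The 9 genes listed as high in 786-O were under 1 CPM in both groups, 4 of them at 0. Both lists were chosen on earlier results of these data, so these levels are no independent check of the line. ENPP5, of the 786-O list, was also at 0 CPM with durvalumab in 786-O parental cells. Of 25 leukocyte markers, 8 were at 0 in all 6 libraries and 22 were under 1 CPM in both groups. Their summed level was 10.6 to 12.1 CPM with durvalumab and 10.9 to 11.3 CPM with atezolizumab. Endothelial and fibroblast markers summed to 4.52 to 5.19 CPM with durvalumab and 4.22 to 4.84 CPM with atezolizumab. None of the 6 leukocyte, 2 endothelial or fibroblast and 1 786-O-high markers with enough counts passed by edgeR, the lowest adjusted p-values being 0.689, 0.514 and 0.736, and MLPH was the only call among the A498-high genes (log2 change 0.19). Over all genes tested, 2.8% were called. In bulk libraries, fewer cells of a type and less RNA per cell cannot be told apart.

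CD274 itself (ENSG00000120217.14, chromosome 9, 5450503 to 5470566 on GRCh38) stood at 7.68, 7.86 and 7.93 CPM with durvalumab, against 8.41, 7.95 and 8.92 CPM with atezolizumab. The groups did not overlap, but the highest durvalumab library and the lowest atezolizumab library were almost level. The log2 change of -0.12 ± 0.0835 (SE) did not pass (edgeR adjusted p = 0.514).

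Durvalumab and atezolizumab left A498 cells with small differences spread over many genes. Of 18372 genes tested, 515 passed an adjusted p of 0.05 (2.8%), 327 of them higher with durvalumab (1.78% of genes) and 188 lower (1.02%), by edgeR's quasi-likelihood test with Benjamini-Hochberg adjustment. At an unadjusted p under 0.05 there were 2820. For 508 of the 515 the durvalumab and atezolizumab libraries did not overlap, while 20.9% of all genes tested had no overlap. The median size of the change among the called genes was 0.24 on the log2 scale, and 455 of them differed by less than 1.5-fold. A change of at least 2-fold was seen in 16 called genes, 9 higher and 7 lower, none of which exceeded a mean of 4.13 CPM in its higher group. Among those with a symbol, the 3 of highest level on the upper side were RN7SL1, a copy of the signal recognition particle RNA with near-identical copies, at 1.28 ± 0.254, PLCH2, a phospholipase C, at 1.05, and the pseudogene MST1P2 at 1.25. On the lower side, again among genes with a symbol, they were the pseudogenes LDHBP2 and HNRNPRP1 at -1.13 and -1.12 and C4B at -1.29. Copies and parent genes may share reads, so the pseudogenes are uncertain. The calls ended when any 1 of the libraries in parentheses was left out for RN7SL1 (durvalumab 1 and 2, atezolizumab 1, 2 and 3), PLCH2 (durvalumab 1 and 3, atezolizumab 3), MST1P2 (durvalumab 1, atezolizumab 3), LDHBP2 (durvalumab 1, atezolizumab 1 and 3), HNRNPRP1 (durvalumab 1, 2 and 3, atezolizumab 1 and 3) and C4B (durvalumab 1 and 3, atezolizumab 1 and 3), with adjusted p 0.0501 to 0.225. The count of calls depended on single libraries: it was 115, 316 and 294 without durvalumab replicates 1, 2 and 3, and 360, 462 and 130 without atezolizumab replicates 1, 2 and 3.

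**Figure D1:**
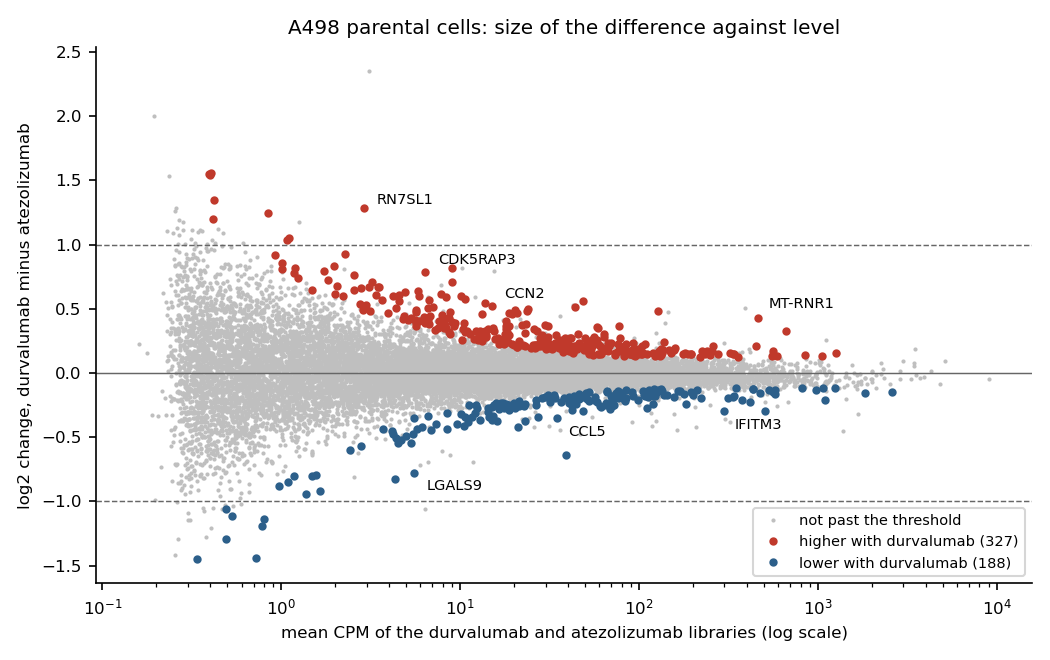
Each point is a gene of A498 parental cells, with its mean CPM over the durvalumab and atezolizumab libraries on a log axis and its log2 change, durvalumab minus atezolizumab, on the vertical axis. The 327 genes called higher are red, the 188 called lower are blue, and the dashed lines mark 2-fold, which 16 called genes exceed, all at 4.13 CPM or less in the higher group.

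The strongest differences at 5 CPM or more in the higher group were led by CDK5RAP3 and HERC2P2 on the upper side and by HPD and LGALS9 on the lower side. CDK5RAP3 (chromosome 17, 47967810 to 47981774), part of the UFM1 protein-modification machinery at the endoplasmic reticulum, had 7.80, 8.09 and 8.35 CPM with durvalumab, against 5.66, 4.17 and 4.14 CPM with atezolizumab. Every durvalumab library was above every atezolizumab library, and atezolizumab replicate 1 lay closest to them. The gene rose by 0.79 ± 0.127 on the log2 scale (adjusted p = 0.00194). UCN2, a peptide of the corticotropin-releasing factor family, had 12, 10.0 and 11.5 CPM with durvalumab, against 7.35, 6.61 and 6.51 CPM with atezolizumab (log2 change 0.71 ± 0.105, adjusted p = 0.000753). UCN2 shares 19.5% of its exonic length with a neighbouring gene, so its value is uncertain. MFNG, a Fringe glycosyltransferase that modifies Notch receptors, had 10.0, 9.78 and 10.2 CPM with durvalumab and 7.42, 5.84 and 6.54 CPM with atezolizumab, a rise of 0.59 ± 0.0967 (adjusted p = 0.000762). TNFRSF25, a death-domain receptor of the tumour necrosis factor family, rose by 0.64, a value that is uncertain because 11.4% of its exons overlap a neighbour. SPTBN5, a spectrin, rose by 0.63, and the host transcripts of microRNAs MIR503HG and MIRLET7BHG rose by 0.62 and 0.60.

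The other 5 of the 12 highest were transcribed or unprocessed pseudogenes, which share sequence with their parent genes, so the reads of copy and parent may be mixed. HERC2P2 had 11.6, 11.9 and 11.2 CPM with durvalumab, against 7.21, 6.14 and 6.22 CPM with atezolizumab (log2 change 0.82 ± 0.134, adjusted p = 0.00789). HERC2P3 rose by 0.60, DDX12P by 0.60 and ZNF731P by 0.58. STAG3L5P rose by 0.60 and shares 31.5% of its exonic length with a read-through gene.

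HPD (chromosome 12, 121839527 to 121863596), the dioxygenase of tyrosine breakdown, had 3.42, 3.33 and 2.54 CPM with durvalumab, against 5.84, 5.38 and 5.34 CPM with atezolizumab. The groups were far apart relative to their spread, and HPD fell by 0.82 ± 0.12 on the log2 scale (adjusted p = 0.000283). LGALS9 (chromosome 17, 27629798 to 27649560), which encodes galectin-9, a sugar-binding ligand of checkpoint receptors on T cells, had 3.69, 4.83 and 3.88 CPM with durvalumab, against 7.6, 5.68 and 7.57 CPM with atezolizumab. All 3 durvalumab libraries were lower, and LGALS9 fell by 0.78 ± 0.118 (adjusted p = 0.000459). CXCL16, a membrane-bound chemokine, had 5.44, 6.07 and 6 CPM with durvalumab and 7.85, 8.05 and 7.57 CPM with atezolizumab, a log2 change of -0.44 ± 0.0892 (adjusted p = 0.00557). Of the others, PLA1A, a phosphatidylserine phospholipase, was at -0.54, LIPC, hepatic lipase, at -0.44, PLCB1, a phospholipase C, at -0.50, and PLAAT4, a phospholipid-modifying enzyme, at -0.42. PLA1A and PLCB1 were called near the threshold (adjusted p = 0.0454 and 0.0218). LINC00467 fell by 0.42, the ribosomal pseudogene RPL13AP25, a near copy, by 0.44, and UQCRB-AS1 by 0.52, the last overlapping UQCRB over 35.3% of its exonic length. ID3 and HES1, transcriptional regulators described with their pathways, complete the 12 lowest.

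Of these 24 genes, 9 kept their call in every alternative fit that tested them: CDK5RAP3, UCN2, TNFRSF25, MIR503HG, HERC2P3, MFNG, ZNF731P, HPD and LGALS9. HPD was tested in 13 alternatives and the others in 14. Leaving out durvalumab replicate 1 ended 14 of the 24 calls (adjusted p 0.0632 to 0.194) and leaving out atezolizumab replicate 3 ended 13 (0.0544 to 0.296). Durvalumab replicates 2 and 3 ended 7 and 6 (0.0612 to 0.124 and 0.0505 to 0.159), and atezolizumab replicates 1 and 2 ended 8 and 3 (0.0507 to 0.145 and 0.0709 to 0.122). The replicate block ended the calls of PLAAT4, RPL13AP25 and DDX12P (0.068 to 0.0875), and a fit of the compared libraries alone those of ID3 and PLAAT4 (0.103 and 0.0501). The stricter filter and GC correction each ended that of PLA1A (0.0644 and 0.0519).

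**Figure D2:**
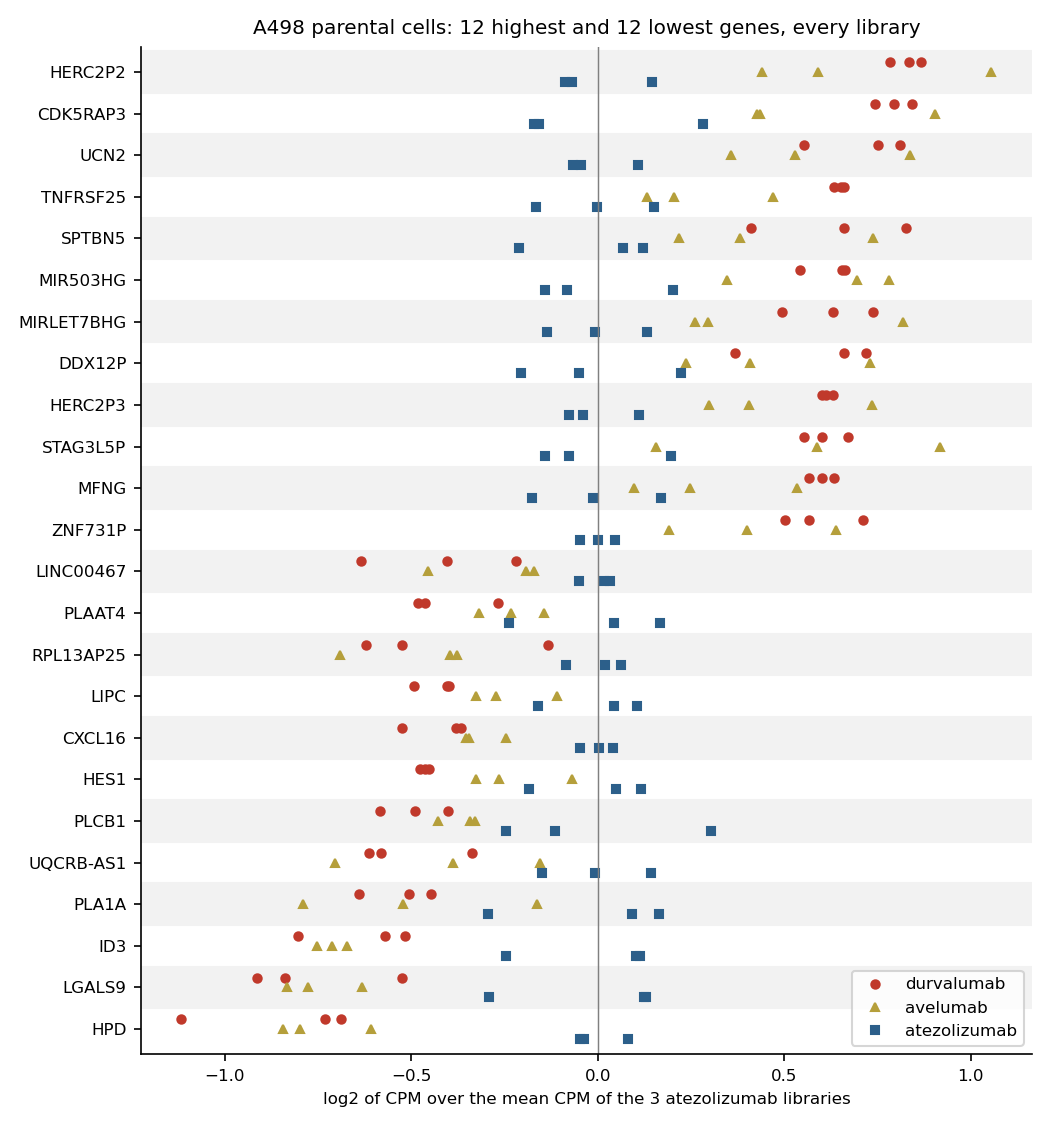
Each row is one of the 12 highest or 12 lowest genes, and each point is a library, placed at the log2 of its CPM over the mean CPM of the 3 atezolizumab libraries, with durvalumab as red circles, avelumab as yellow triangles and atezolizumab as blue squares. Red circles and blue squares do not overlap in any row, as the rule that chose the genes required.

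Interferon response genes were lower with durvalumab than with atezolizumab. They were lower with avelumab too, where 22 of 72 were called lower than with atezolizumab and 0 higher. Of 72 tested, 13 fell and none rose, against 1.02% of all genes called lower, and 65 of the 72 log2 changes were below 0, with a median of -0.14 where the median of all genes was -0.0003. CCL5, a T-cell-attracting chemokine, had 29.6, 32.6 and 30.7 CPM with durvalumab, against 39.8, 37.5 and 39.6 CPM with atezolizumab (log2 change -0.35 ± 0.0534, adjusted p = 0.000459). USP18, which removes ISG15 from proteins and damps interferon receptor signalling, had 22.7, 27.2 and 22.4 CPM with durvalumab and 33.7, 27.4 and 29.7 CPM with atezolizumab, where the nearest libraries almost met (-0.34 ± 0.076, adjusted p = 0.023). IFITM3, a membrane protein that blocks virus entry, had 265, 288 and 254 CPM with durvalumab and 338, 311 and 331 CPM with atezolizumab (-0.29 ± 0.0434, adjusted p = 0.000732). IFITM3 shares 21.3% of its exonic length with an antisense gene and is uncertain. RSAD2, the antiviral enzyme viperin, was at -0.27 (adjusted p = 0.0238). Named outside the rule, after their values were seen, IFI27 was at -0.24, GBP1, a guanylate-binding protein, at -0.20, PLSCR1 at -0.18 and TRIM14 at -0.17. OASL, BST2, DDX60 and NMI were also called, at -0.20, -0.19, -0.19 and -0.16. Of the genes named, calls ended when any 1 of the libraries in parentheses was left out for USP18 (durvalumab 1 and 3, atezolizumab 3), RSAD2 (durvalumab 1, 2 and 3, atezolizumab 1 and 3), GBP1 (durvalumab 3), PLSCR1 (durvalumab 1 and 3, atezolizumab 1 and 3) and TRIM14 (durvalumab 1 and 3, atezolizumab 1 and 3), with adjusted p 0.0538 to 0.196. The USP18 call also ended in a fit of the compared libraries alone (adjusted p = 0.0657).

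Several classical members did not pass. ISG15, a ubiquitin-like modifier, averaged 71.8 ± 6.97 CPM with durvalumab and 83.8 ± 11.2 CPM with atezolizumab (SD, n = 3 each; log2 change -0.24, edgeR adjusted p = 0.359). MX1, a dynamin-like antiviral protein, averaged 463 ± 54.8 and 517 ± 54.3 CPM in the same order, with an adjusted p of 0.494. The spread between libraries of a group was wide for these genes, and the summed level of the list ran from 8303 to 9073 CPM with durvalumab and from 8728 to 9973 CPM with atezolizumab, so the groups overlapped. The number of list members called was 5 without durvalumab replicate 1, 16 without replicate 2 and 5 without replicate 3. It was 8, 22 and 6 without atezolizumab replicates 1, 2 and 3, always with 0 higher. The median log2 change was -0.09 without atezolizumab replicate 1.

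The promoters of 3 called genes of the list are shown because they hold the interferon-stimulated response element, the motif bound by the interferon-activated factor ISGF3 and by IRF proteins. The motif was searched as GAAA, any 2 bases and GAAA, on both strands in the 250 bases before the gene start (RefSeq, GRCh38.p14), and capitals mark each match. IFITM3 is read on the minus strand from chr11:320861-321110, IFI27 on the plus strand from chr14:94110486-94110735 and GBP1 on the minus strand from chr1:89065209-89065458, each 5′ to 3′ toward the gene.
IFITM3: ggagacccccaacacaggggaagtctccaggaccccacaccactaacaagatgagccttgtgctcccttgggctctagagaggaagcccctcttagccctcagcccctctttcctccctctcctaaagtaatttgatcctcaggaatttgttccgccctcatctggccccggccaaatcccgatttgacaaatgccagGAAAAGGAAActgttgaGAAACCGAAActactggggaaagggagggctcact
IFI27: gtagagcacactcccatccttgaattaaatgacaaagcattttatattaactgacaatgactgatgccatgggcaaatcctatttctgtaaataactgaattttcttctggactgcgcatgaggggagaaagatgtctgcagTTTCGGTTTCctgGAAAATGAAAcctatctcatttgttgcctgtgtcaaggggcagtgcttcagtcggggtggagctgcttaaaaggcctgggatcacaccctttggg
GBP1: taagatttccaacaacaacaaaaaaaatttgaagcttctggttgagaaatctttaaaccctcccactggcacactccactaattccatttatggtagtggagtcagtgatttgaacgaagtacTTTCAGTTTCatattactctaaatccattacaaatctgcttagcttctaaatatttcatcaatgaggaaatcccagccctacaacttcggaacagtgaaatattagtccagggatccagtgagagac
IFITM3 and IFI27 each held 2 matches and GBP1 held 1, between 35 and 127 bases upstream of the start. Of 27305 promoters in the table, 839 held the motif (3.07%), and of the 55 interferon list members that were tested and had a promoter there, 28 held it (50.9%). Among the called members, 9 had a promoter and 8 held the motif, with RSAD2 the exception. Over all called genes with a promoter, 12 of 123 lower genes (9.76%) and 4 of 221 higher genes (1.81%) held it. Of 11967 tested genes with a promoter, 282 held it (2.36%). The 12 include the 8 called list members, so this count largely repeats the list and adds no separate evidence. These are letter matches and were not tested for binding.

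Genes of class I antigen presentation were lower by smaller amounts. Of 22 tested, 6 fell and none rose, against 1.02% of all genes called lower. Of the log2 changes 21 were below 0, and the median was -0.11. PSMB9, an interferon-inducible subunit of the immunoproteasome, had 53.3, 54.9 and 54.1 CPM with durvalumab, against 61.7, 62.5 and 64.2 CPM with atezolizumab (log2 change -0.23 ± 0.0391, adjusted p = 0.00109). The libraries of each group lay close together and well apart from the other group. PSMB8, its partner subunit, was at -0.16, and HLA-B, a class I heavy chain, was at -0.13. PSMB8 and HLA-B share 20.6% and 18.9% of their exonic length with neighbours, and class I heavy chain genes resemble each other, so both values are uncertain. TAP1, which carries peptides into the endoplasmic reticulum, and PSME2, a proteasome activator, were at -0.13 and -0.12 (adjusted p = 0.0422 and 0.0488). B2M, the class I light chain, averaged 1269 ± 33.3 CPM with durvalumab and 1367 ± 17.8 CPM with atezolizumab, and did not pass (adjusted p = 0.0544). The calls numbered 1, 5 and 1 without durvalumab replicates 1, 2 and 3 and 3, 4 and 1 without atezolizumab replicates 1, 2 and 3. With the replicate number as a block there were 2. By gene, calls ended when any 1 of the libraries in parentheses was left out for PSMB8 (durvalumab 1 and 3, atezolizumab 3), HLA-B (durvalumab 1 and 3, atezolizumab 1 and 3) and TAP1 (durvalumab 1 and 3, atezolizumab 1, 2 and 3), with adjusted p 0.0553 to 0.223. The TAP1 call also ended with DESeq2 and the replicate block (adjusted p = 0.0534 and 0.0704), and that of HLA-B with the replicate block (0.061).

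LGALS9 was the only called gene of 18 tested checkpoint ligands and PD-L1 regulators, where 2.8% of all genes tested were called. CMTM6, which stabilises PD-L1 at the membrane, was at -0.03 (adjusted p = 0.823), PVR at 0.06 and CD47 at -0.05. Of 10 Fc gamma receptors and Fc-binding proteins only 2 had enough counts to be tested and none passed. TRIM21, a cytosolic Fc receptor, had 44.9, 46.1 and 44.4 CPM with durvalumab and 51.0, 46.9 and 46.7 CPM with atezolizumab, which gave an adjusted p of 0.235.

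Cytokine and feedback genes of NF-kappaB moved in both directions, with 2 higher and 3 lower of 28 and a median of 0.00. Of all genes tested, 1.78% were called higher and 1.02% lower. CCL2, a monocyte chemokine, had 59.2, 55.6 and 53.2 CPM with durvalumab, against 68.0, 69.0 and 63.4 CPM with atezolizumab, and fell by 0.26 ± 0.0473 (adjusted p = 0.00215) in this and every alternative fit. TRAF1, a signalling adaptor, fell by 0.29, and NFKBIA, the inhibitor that holds NF-kappaB in the cytosol, by 0.20. IL6 had 33.2, 31.2 and 29.9 CPM with durvalumab and 26.9, 27.5 and 25.2 CPM with atezolizumab, a log2 change of 0.24 ± 0.064 (adjusted p = 0.0454). IL6 shares 20.7% of its exonic length with IL6-AS1. Calls of this list ended when any 1 of the libraries in parentheses was left out for IL6 (durvalumab 1, 2 and 3, atezolizumab 1, 2 and 3), NFKBIA (durvalumab 1 and 3, atezolizumab 1, 2 and 3) and TRAF1 (durvalumab 3), with adjusted p 0.0502 to 0.28. The IL6 call also ended with the stricter filter, DESeq2 and GC correction (adjusted p = 0.0573, 0.0552 and 0.0533). CSF1, macrophage colony-stimulating factor, was at 0.13 (adjusted p = 0.0326). Of 16 complement genes 3 fell and none rose, against 1.02% of all genes called lower. C1R, a protease that starts the classical pathway, had 63.0, 69.0 and 63.1 CPM with durvalumab and 77.9, 72.9 and 80.0 CPM with atezolizumab (log2 change -0.26 ± 0.0429, adjusted p = 0.00082). It shares 11.4% of its exonic length with C1RL and is uncertain, and C1S, its partner protease, was at -0.19 (adjusted p = 0.00271). C4B, which has a near-identical neighbouring copy, had 0.224, 0.424 and 0.228 CPM with durvalumab and 0.739, 0.568 and 0.763 CPM with atezolizumab, and was at -1.29. The call ended when the library in parentheses was left out for C1S (durvalumab 1), with adjusted p 0.0509.

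**Figure D3:**
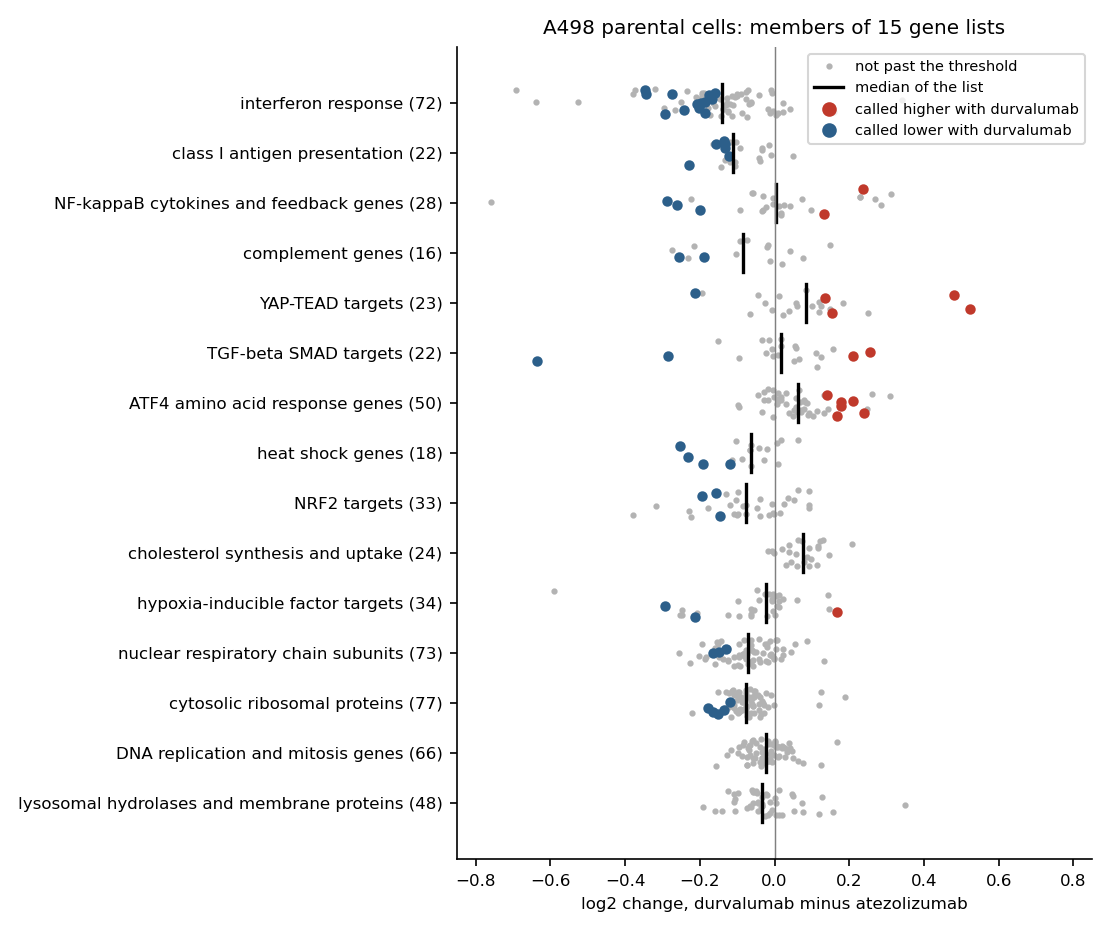
Each point is a tested member of one of 15 gene lists, placed at its log2 change, durvalumab minus atezolizumab, with the number of tested members in parentheses and a bar at the list's median. Red points passed the test as higher, blue as lower and grey did not pass. The interferon and class I lists hold only blue calls, the ATF4 list only red ones, and C4B, at -1.29, lies beyond the axis.

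Among targets of YAP and TEAD, which report cell spreading and tension, 4 rose and 1 fell of 23, with 17 values above 0 and a median of 0.08. Of all genes tested, 1.78% were called higher and 1.02% lower. CCN2, a secreted matrix protein also known as connective tissue growth factor (chromosome 6, 131948176 to 131951373), had 18.8, 17.8 and 16.7 CPM with durvalumab, against 11, 13.5 and 12.4 CPM with atezolizumab. The groups were separate, and CCN2 rose by 0.52 ± 0.0736 (adjusted p = 0.000235) and kept its call in every alternative. CCN1, a related matrix protein, had 161, 149 and 136 CPM with durvalumab and 102, 111 and 104 CPM with atezolizumab (log2 change 0.48 ± 0.0914, adjusted p = 0.0488). Calls ended when any 1 of the libraries in parentheses was left out for CCN1 (durvalumab 1 and 2, atezolizumab 1, 2 and 3) and ASAP1 (durvalumab 1 and 3, atezolizumab 2 and 3), with adjusted p 0.078 to 0.216. The CCN1 call also ended with upper-quartile factors and with GC correction (adjusted p = 0.0501 and 0.0523). That of ASAP1 also ended with the stricter filter, DESeq2 and the replicate block (adjusted p = 0.0715, 0.058 and 0.0715). ASAP1 and AJUBA were at 0.15 and 0.13, both near the threshold (adjusted p = 0.0488 and 0.0465). IGFBP3, a carrier of insulin-like growth factors that is also a hypoxia target, fell to 1004, 1044 and 1006 CPM with durvalumab, against 1154, 1181 and 1175 CPM with atezolizumab (-0.21 ± 0.0365, adjusted p = 0.00115). The list's calls numbered 1 higher without durvalumab replicate 1 and without atezolizumab replicates 2 or 3, and 2 higher without durvalumab replicates 2 or 3 or with the replicate block, always with 1 lower. The median was 0.04 without atezolizumab replicate 3.

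The CCN2 promoter is shown with the TEAD motif GGAATG, searched on both strands in the same 250-base windows and capitalised. It is read on the minus strand from chr6:131951373-131951622 (RefSeq, GRCh38.p14).
CCN2: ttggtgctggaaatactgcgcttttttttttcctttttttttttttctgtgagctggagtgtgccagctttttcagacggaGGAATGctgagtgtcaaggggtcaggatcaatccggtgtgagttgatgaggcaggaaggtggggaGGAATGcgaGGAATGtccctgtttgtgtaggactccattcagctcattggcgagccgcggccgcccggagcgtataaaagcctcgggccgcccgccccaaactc
The window held 3 matches, 169, 104 and 95 bases upstream of the start. The motif was present in 3248 of 27305 promoters (11.9%), so a single match is common. Of the 3 called YAP-TEAD members with a promoter in the table, CCN2 alone held it.

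ID3 and ID1, inhibitors of basic helix-loop-helix factors and direct targets of BMP and SMAD signalling, were both lower. ID3 had 31.8, 33.0 and 27.0 CPM with durvalumab, against 51.1, 39.8 and 50.7 CPM with atezolizumab, and atezolizumab replicate 2 lay nearest to the durvalumab libraries. Its log2 change was -0.64 ± 0.108 (adjusted p = 0.0278), and it did not pass in a fit of the 6 compared libraries alone (adjusted p = 0.103). ID1 had 36.9, 42.0 and 35.2 CPM with durvalumab and 48.9, 42.6 and 46.3 CPM with atezolizumab (-0.29 ± 0.0568, adjusted p = 0.00727). On the same list of 22, COL1A1, the main fibrillar collagen, rose to 61.3, 61.2 and 58.8 CPM with durvalumab, against 50.0, 50.5 and 50.2 CPM with atezolizumab (0.26 ± 0.0464, adjusted p = 0.00196), and SKIL, a SMAD repressor, rose by 0.21. HES1, a Notch-induced repressor, had 4.52, 4.57 and 4.6 CPM with durvalumab and 6.83, 5.54 and 6.51 CPM with atezolizumab (-0.48 ± 0.104, adjusted p = 0.00889). Calls ended when any 1 of the libraries in parentheses was left out for ID3 (durvalumab 1, atezolizumab 1 and 3), ID1 (durvalumab 1), HES1 (durvalumab 1, atezolizumab 1 and 3) and SKIL (durvalumab 3, atezolizumab 3), with adjusted p 0.0507 to 0.103.

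Of 32 immediate early and ERK feedback genes, 2 rose and 1 fell, where 1.78% of all genes were called higher and 1.02% lower. DUSP1, a phosphatase that switches off MAP kinases, had 60.4, 59.6 and 54.8 CPM with durvalumab, against 48.2, 50.2 and 47.9 CPM with atezolizumab (log2 change 0.25 ± 0.0482, adjusted p = 0.00439). KLF4, a zinc finger factor, rose by 0.23, and BTG2, an antiproliferative gene that is also a p53 target, fell by 0.23. Calls ended when any 1 of the libraries in parentheses was left out for DUSP1 (durvalumab 1, atezolizumab 3), KLF4 (atezolizumab 3) and BTG2 (durvalumab 1 and 3, atezolizumab 1 and 3), with adjusted p 0.0501 to 0.183. TPM2, beta-tropomyosin, was the only called gene of 18 cytoskeletal targets of MRTF and SRF, with 24.6, 24.4 and 23.4 CPM with durvalumab and 19.5, 16.4 and 16.3 CPM with atezolizumab. It rose by 0.47 ± 0.07 (adjusted p = 0.000666). Of 39 mesenchymal matrix and adhesion genes 3 rose and none fell, and these were CCN2, CCN1 and COL1A1, counted above.

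Genes that the factor ATF4 induces when amino acids are short were slightly higher. Of 50 tested, 6 rose and none fell, against 1.78% of all genes called higher, and 39 values were above 0, with a median of 0.06. SLC38A2, a transporter of neutral amino acids, had 145, 151 and 157 CPM with durvalumab, against 127, 126 and 127 CPM with atezolizumab (0.24 ± 0.0372, adjusted p = 0.000459), and held in every alternative. GDF15, a stress-induced hormone that reduces appetite and also a p53 target, had 496, 504 and 460 CPM with durvalumab and 440, 403 and 410 CPM with atezolizumab (0.21 ± 0.0407, adjusted p = 0.00557). PPP1R15A, which restores translation after stress, and GPT2, a mitochondrial alanine aminotransferase, each rose by 0.18, VEGFA by 0.17 and HERPUD1 by 0.14. The count was 1, 3 and 6 without durvalumab replicates 1, 2 and 3 and 7, 6 and 2 without atezolizumab replicates 1, 2 and 3. The median was 0.04 without atezolizumab replicate 3. By gene, calls ended when any 1 of the libraries in parentheses was left out for GDF15 (durvalumab 1, atezolizumab 3), PPP1R15A (durvalumab 1, atezolizumab 1 and 3), GPT2 (durvalumab 1 and 2, atezolizumab 2 and 3) and VEGFA (durvalumab 1 and 2), with adjusted p 0.0544 to 0.215.

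Of 18 heat shock genes 4 fell and none rose, against 1.02% of all genes called lower. HSPE1, the mitochondrial co-chaperonin, had 63.3, 64.6 and 72.2 CPM with durvalumab, against 82.2, 74.2 and 79.7 CPM with atezolizumab (-0.25 ± 0.0461, adjusted p = 0.00266). HSPE1 shares 14.2% of its exonic length with HSPD1, its partner chaperonin, which was at -0.12 (adjusted p = 0.0467). The HSPD1 call also ended with the replicate block (0.0862), upper-quartile factors (0.0578) and GC correction (0.0587). HSPA1A and HSPA1B, near-identical genes of the inducible HSP70, were at -0.19 and -0.23 and are uncertain. The HSPA1B call also ended with the stricter filter and in a fit of the compared libraries alone (adjusted p = 0.0614 and 0.0504). None of 20 endoplasmic reticulum chaperones passed by edgeR, SYVN1 having the lowest p (log2 change 0.13, adjusted p = 0.136). Of 33 NRF2 targets, 3 fell and none rose, against 1.02% of all genes called lower. They were GSR, glutathione reductase, at -0.19 (adjusted p = 0.00319), PGD at -0.16 and FTL, ferritin light chain, at -0.15. Without durvalumab replicate 1 the heat shock calls numbered 1 and the NRF2 calls 1, and without atezolizumab replicate 3 they numbered 2 and 1. Among 30 p53 targets, 2 rose and 3 fell, where 1.78% of all genes were called higher and 1.02% lower. FDXR, a mitochondrial reductase, was at -0.23 (adjusted p = 0.0052). By gene, calls ended when any 1 of the libraries in parentheses was left out for HSPD1 (durvalumab 1, 2 and 3, atezolizumab 2 and 3), HSPA1A (durvalumab 1, atezolizumab 1), HSPA1B (durvalumab 1 and 3, atezolizumab 1 and 3), GSR (atezolizumab 3), PGD (durvalumab 1 and 3, atezolizumab 3) and FTL (durvalumab 1, 2 and 3, atezolizumab 3), with adjusted p 0.0507 to 0.202. None of 6 metallothioneins passed (lowest adjusted p 0.177).

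The lists of metabolism genes each held a small number of calls or none. Over all genes tested, 1.78% were called higher and 1.02% lower. Of 34 targets of hypoxia-inducible factors, 1 rose and 2 fell: VEGFA, the main angiogenic factor, had 268, 281 and 263 CPM with durvalumab and 239, 228 and 250 CPM with atezolizumab (0.17 ± 0.0361, adjusted p = 0.00822). CA12, a membrane carbonic anhydrase, had 447, 469 and 450 CPM with durvalumab, against 542, 511 and 608 CPM with atezolizumab (-0.29 ± 0.0502, adjusted p = 0.00665), and IGFBP3 was the other. Of 22 glycolysis genes, LDHB and PFKFB3 were at -0.38 and -0.14, but LDHB overlaps a neighbour over 33.4% of its exonic length. None of 24 cholesterol genes passed in A498 cells (SQLE, squalene epoxidase, had the lowest p, with a log2 change of 0.15 and an edgeR adjusted p of 0.0686), although 21 of the 24 were above 0 and the median was 0.08. None of 14 fatty acid synthesis genes, 66 replication and mitosis genes or 48 lysosomal genes passed by edgeR, with medians of -0.05, -0.02 and -0.03 and lowest adjusted p-values of 0.303, 0.0554 and 0.0648. DESeq2 called 1 lysosomal gene lower and none of the other 2 lists, and GC correction called 4 lysosomal genes lower. ARRDC3, an arrestin, was the only call of 8 MondoA targets (-0.17). Of 21 tested renal markers 3 rose and none fell by edgeR, with 12 values above 0 and 9 below. PAX8 rose by 0.15, LHX1, a kidney development factor, by 0.21 and ANPEP, a brush-border peptidase, by 0.14. Others were lower without passing by edgeR, such as HNF4A (4.18 CPM on average with durvalumab, 8.48 CPM with atezolizumab) and CDH16 (5.79 and 7.64 CPM). DESeq2 called 3 renal markers higher and 1 lower. The replicate block ended the calls of LHX1 and ANPEP (adjusted p = 0.0853 and 0.0625), as did GC correction (0.0949 and 0.0716). The stricter filter also ended that of LHX1 (0.058) and upper-quartile factors that of ANPEP (0.0524). PFKFB3 lost its call with the stricter filter, DESeq2 and the replicate block (adjusted p = 0.0674, 0.0681 and 0.0704). Calls ended when any 1 of the libraries in parentheses was left out for VEGFA (durvalumab 1 and 2), LDHB (durvalumab 1), PFKFB3 (durvalumab 1, 2 and 3, atezolizumab 1 and 3), ARRDC3 (durvalumab 1, atezolizumab 1 and 3), PAX8 (durvalumab 1 and 2, atezolizumab 3), LHX1 (durvalumab 1 and 3, atezolizumab 1, 2 and 3) and ANPEP (durvalumab 1, 2 and 3, atezolizumab 1, 2 and 3), with adjusted p 0.0532 to 0.296.

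Of 27 tested genes of the mitochondrial genome, 6 rose and none fell, against 1.78% of all genes called higher. MT-RNR1, the small ribosomal RNA of mitochondria, named outside the rule, had 548, 526 and 518 CPM with durvalumab, against 395, 385 and 393 CPM with atezolizumab. The gap was several times the spread within either group, and the log2 change of 0.43 ± 0.0382 had an adjusted p of 6.03e-08. MT-RNR2, the large ribosomal RNA, had 3918, 3582 and 3628 CPM with durvalumab and 3180, 3004 and 3516 CPM with atezolizumab, and did not pass (0.19 ± 0.0537, adjusted p = 0.0974). The 6 included 4 of 12 transfer RNAs, whose median log2 change was 0.49. The library kit was one for mRNA, and whether reads of ribosomal and transfer RNAs follow the levels of these RNAs was not tested. MT-TT, the threonine transfer RNA, also outside the rule, had 3.50, 2.87 and 2.61 CPM with durvalumab and 1.72, 1 and 2 CPM with atezolizumab (log2 change 0.93, adjusted p = 0.00715). Its call ended without durvalumab replicate 1 (adjusted p = 0.0797). Among the 13 messenger RNAs MT-ND1, a subunit of complex I, was the only one to pass by edgeR (0.33 ± 0.0669, adjusted p = 0.041). The call ended when any 1 of the libraries in parentheses was left out for MT-ND1 (atezolizumab 1, 2 and 3), with adjusted p 0.0903 to 0.163. It also ended in a fit of the 6 compared libraries alone (adjusted p = 0.0883), and DESeq2 called 2 messenger RNAs higher. The share of all counts from the mitochondrial genome was 2.75 ± 0.193% with durvalumab and 2.53 ± 0.0893% with atezolizumab (SD, n = 3 each), and overlapped between the groups (exact two-sided permutation p = 0.2, where 0.1 is the smallest possible). The difference of 0.213 percentage points was 0.102 without durvalumab replicate 1.

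Of 77 cytosolic ribosomal protein genes, 5 fell and none rose, against 1.02% of all genes called lower, and 74 values were below 0, with a median of -0.08. RPL23 had 539, 552 and 554 CPM with durvalumab, against 593, 617 and 619 CPM with atezolizumab (-0.17 ± 0.0345, adjusted p = 0.00683), and RPL38, which overlaps a neighbour over 17.7% of its exonic length, was at -0.18. No ribosomal call was made without durvalumab replicate 1 or without atezolizumab replicate 3, at 0 of 77 each. Ribosomal protein genes took 4.09 ± 0.03% of counts with durvalumab and 4.28 ± 0.0992% with atezolizumab (SD, n = 3 each), without overlap (exact two-sided permutation p = 0.1, the smallest possible, 0.2 adjusted over 6 shares). Of 73 nuclear respiratory chain subunits 3 fell and none rose, against 1.02% of all genes called lower, and 63 values were below 0. ATP5F1C, a subunit of ATP synthase, was at -0.17. None of the 73 was called without durvalumab replicate 1 or without atezolizumab replicate 3, where ATP5MC1 reached 0.103 and 0.0716 and COX7C 0.156 and 0.213 (edgeR adjusted p). COX7C also lost its call without durvalumab replicates 2 or 3 or atezolizumab replicate 1 (0.108, 0.106 and 0.0748). It did so too with the replicate block (0.0737) and without the filter on low counts (0.0526). Calls ended when any 1 of the libraries in parentheses was left out for RPL23 (durvalumab 1, atezolizumab 3), RPL38 (durvalumab 1 and 3, atezolizumab 2 and 3) and ATP5F1C (durvalumab 1, atezolizumab 3), with adjusted p 0.0544 to 0.112. Avelumab libraries were at 4.34, 4.26 and 4.05% for the ribosomal share and spanned much of the range of both groups.

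By class of transcript, processed pseudogenes, reverse-transcribed copies of messenger RNAs, included 20 lower genes of 651 (3.07%) and 0 higher ones. Over all genes tested, 1.78% were called higher and 1.02% lower. They took 0.343 ± 0.0041% of counts with durvalumab and 0.357 ± 0.00359% with atezolizumab. Transcribed unprocessed pseudogenes, remnants of duplicated genes, included 16 higher genes of 242 (6.61%) and 0 lower ones. Among 13410 protein-coding genes there were 271 higher and 154 lower calls. Protein-coding genes were split by the GC content of their exons into 5 groups of equal size. The group of highest GC (58.8 to 74.2% GC) held 148 higher and 16 lower genes of 2682, or 5.52% and 0.597%. The group of lowest GC held 19 higher and 20 lower, or 0.708% and 0.746%. The share of counts from genes of highest GC was 18.9, 19.0 and 18.2% with durvalumab and 18.6, 18.2 and 18.2% with atezolizumab, so the groups overlapped. With each library corrected for its trend with GC, an alternative chosen after seeing the data, 579 genes passed, 312 higher and 267 lower, of which 447 were among the 515. In that fit the group of highest GC held 3.99% higher and 2.68% lower, and the interferon and class I lists held 13 and 8 lower genes with none higher.

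**Figure D4:**
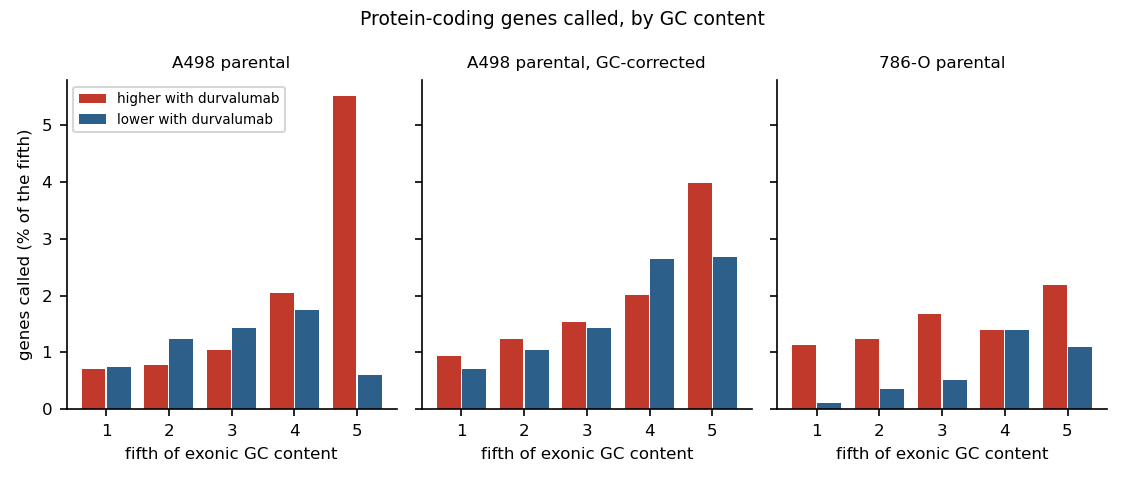
Bars give the percentage of tested protein-coding genes called higher (red) or lower (blue) with durvalumab than with atezolizumab in 5 groups of exonic GC content, from the lowest at 1 to the highest at 5, for A498 parental cells without and with GC correction and for 786-O parental cells. In A498 the highest group stands at 5.52% higher and 0.597% lower, and at 3.99% and 2.68% after correction.

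Comparisons with avelumab share the durvalumab and atezolizumab libraries with the main comparison, so their values are given side by side. LGALS9 had 4.48, 3.90 and 4.05 CPM with avelumab and CCN2 18.7, 16.9 and 16.7 CPM, close to their durvalumab values. Durvalumab against avelumab gave 11 calls, all higher with durvalumab (0.0599% of genes), and 1264 at an unadjusted p under 0.05. They include SRXN1, sulfiredoxin, with 4.30 ± 0.67 CPM with durvalumab and 2.52 CPM on average with avelumab (log2 change 0.76, adjusted p = 0.0162), C4orf48 at 0.48, RTN4R at 0.37 and LRRC45 at 0.27. SRXN1 and C4orf48 did not pass between durvalumab and atezolizumab (log2 changes 0.05 and -0.09, adjusted p = 0.898 and 0.678). Without durvalumab replicates 1 and 2 there were 2 and 0, and without avelumab replicates 1, 2 and 3 there were 4, 0 and 136. Avelumab against atezolizumab gave 623 calls (3.39%), with 315 higher (1.71%) and 308 lower (1.68%). In it 22 of 72 interferon genes (median -0.20) and 7 of 22 class I genes fell and 0 rose. Of 50 ATF4 genes 20 rose and 0 fell. Of the 515 genes called between durvalumab and atezolizumab, 513 had an avelumab mean on the durvalumab side of the atezolizumab mean. For 426 the avelumab mean lay nearer to durvalumab. The same atezolizumab libraries enter both comparisons, so these counts are no separate evidence.

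In 786-O parental cells the same pair of antibodies gave 320 calls among 17577 genes (1.82%), 226 higher (1.29%) and 94 lower (0.535%), from libraries that the A498 comparison does not use. The 320 became 536, 104 and 193 without 786-O durvalumab replicates 1, 2 and 3, and 186 and 118 without 786-O atezolizumab replicates 2 and 3. Of the 493 A498 calls also tested in 786-O, 347 had the same sign there, against 56.3% of all genes tested in both. By direction, 243 of 316 higher genes and 104 of 177 lower genes had the same sign. Their median log2 changes in 786-O were 0.09 and -0.02. Among all genes tested in both, 49.1% were above 0 in 786-O and 50.9% below. Calls with the same sign in both lines numbered 53, which is 10.8% of the A498 calls and 17.3% of the 307 calls of 786-O, where 1.86% of shared genes were called, and 11 were called with opposite signs. Of all genes tested in both, 1.3% were called higher in 786-O and 0.558% lower. Of 316 genes called higher in A498, 48 were also called higher in 786-O and 4 lower. Of 177 lower genes, 5 were also called lower (PLSCR1, TRIM14, SDSL, BLVRB and VPS25, named outside the rule) and 7 were called higher. The A498 calls of SDSL (adjusted p 0.0797 to 0.124) and VPS25 (0.0561 to 0.204) ended when any 1 of the 6 libraries was left out, with DESeq2 (0.0809 and 0.0525) and with the replicate block (0.0591 and 0.0576). That of BLVRB ended without durvalumab replicate 3 or atezolizumab replicate 3 (0.057 and 0.0875), and PLSCR1 and TRIM14 each lost theirs without any 1 of durvalumab replicates 1 and 3 and atezolizumab replicates 1 and 3. CEP152, a centrosome protein outside the rule, had 23.1, 22.1 and 25.8 CPM with durvalumab and 15.4, 17.3 and 17.2 CPM with atezolizumab in A498 cells. Its log2 change was 0.49 ± 0.0647 in A498 and 0.45 ± 0.0488 in 786-O (adjusted p = 0.000121 and 9.57e-06). MAPK8IP3, a kinesin-linked scaffold, was at 0.56 in A498 and 0.41 in 786-O, AMH, anti-Muellerian hormone, at 0.54 and 0.47, and HERC2P3 at 0.60 and 0.71, all 3 called in both lines and named outside the rule except HERC2P3. The A498 call of MAPK8IP3 ended without durvalumab replicate 1 (adjusted p = 0.0834) and without atezolizumab replicate 3 (0.0673). Interferon response genes were lower in 786-O too, with 7 of 70 called lower, 1 called higher and a median of -0.10. None of the 22 class I genes passed in 786-O by edgeR, where PSMB9 was at -0.21 (adjusted p = 0.143) and HLA-B at -0.02 (adjusted p = 0.939). Cholesterol genes differed in count, with 13 of 24 called higher in 786-O and 0 in A498, but the test of the difference between the lines called only 1 of them. LGALS9 and HPD had too few counts in 786-O to be tested there.

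The difference between durvalumab and atezolizumab itself differed between the lines for 157 of 19703 genes (0.797%), 66 more positive in A498 (0.335%) and 91 more negative (0.462%). TGM2, a transglutaminase, had 1349, 1312 and 1361 CPM with durvalumab and 1240, 1208 and 1139 CPM with atezolizumab in A498, a rise of 0.15 ± 0.0385, but was at -0.29 ± 0.0401 in 786-O. The difference of the differences was 0.45 ± 0.0627 (edgeR adjusted p = 0.000349). PPP1R15A was at 0.18 in A498 and -0.18 in 786-O, both called (difference 0.37, adjusted p = 0.00146). AMIGO2, a cell adhesion protein, rose by 0.21 in A498 and was at -0.11 in 786-O, where it did not pass (difference 0.32, adjusted p = 0.000857). F3, tissue factor, was at 0.25 in A498, where it did not pass (adjusted p = 0.0614), and at -0.24 in 786-O (difference 0.50). On the other side, SLC6A6, the taurine transporter, was at -0.12 in A498 and 0.33 in 786-O (difference -0.44 ± 0.0531, adjusted p = 7.61e-06), and IMPA2, an inositol phosphatase, at -0.35 and 0.51 (difference -0.85). ZNF395 fell by 0.30 in A498 and was at 0.14 in 786-O (difference -0.43), with 34.9% of its exonic length shared with FBXO16. OPN3 was at -0.06 and 0.51 (difference -0.56), with 55.5% shared with KMO, so both are uncertain. The count of 157 was 64 without A498 durvalumab replicate 1, 69 without A498 atezolizumab replicate 3, 94 without A498 atezolizumab replicate 1, 98 without 786-O durvalumab replicate 2 and 74 without 786-O atezolizumab replicate 3.

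**Figure D5:**
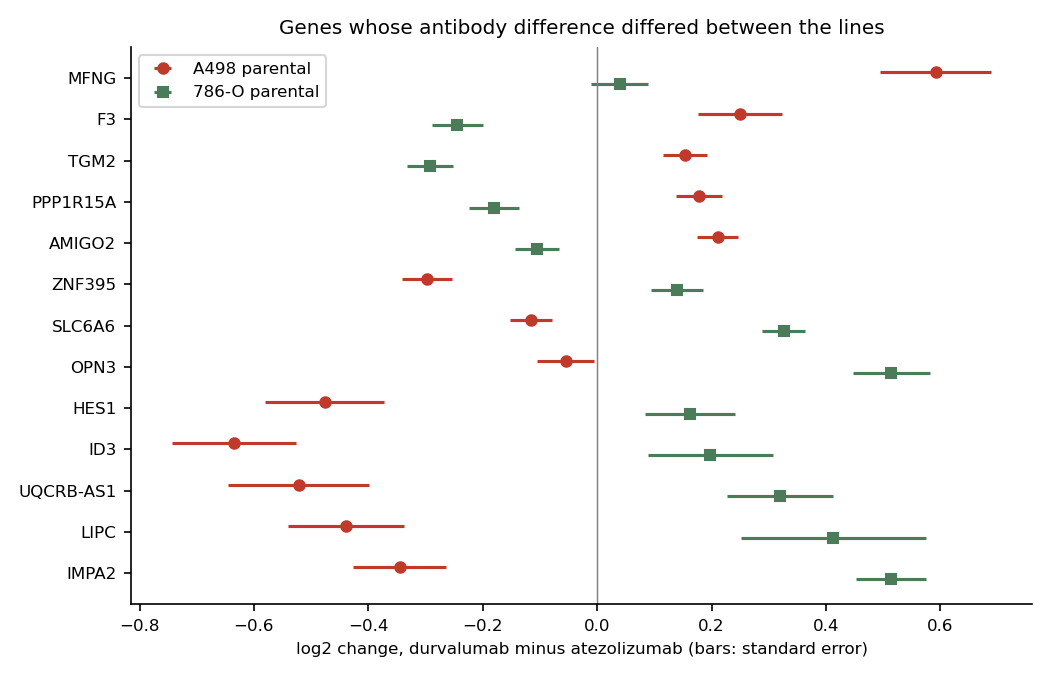
For 13 genes whose antibody difference differed between the lines, red circles give the log2 change, durvalumab minus atezolizumab, in A498 parental cells and green squares the same in 786-O parental cells, with standard errors as bars. MFNG, F3, TGM2, PPP1R15A and AMIGO2 are higher in A498 than in 786-O, and the other 8, from ZNF395 to IMPA2, are lower in A498.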

How the data were processed

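RNA was measured in 36 libraries, of which 6 form the comparison, and 3 further A498 and 9 further 786-O parental libraries entered fits. The deposited values are whole read counts for each gene, to which no scaling had been applied. Per the submitters' processing notes, reads were handled with featureCounts 1.6.3, HISAT2 2.1.0, Trimmomatic 0.36.6 and bcl2fastq 2.19.0 (no order given), on build GRCh38. The library kit was a stranded one for mRNA, per the labels' protocols. How strand was set in counting, and which annotation was used, is not given in the sources used here. An overlap with a neighbour of 10% or more of exonic length marks a gene as uncertain.

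The test was the quasi-likelihood F test of edgeR 4.0.16 under R 4.3.3. Low genes were removed with filterByExpr (count minimum 10, total minimum 15). TMM gave the size factors, and the model was fitted by robust quasi-likelihood with group means, over the 9 libraries of a line or the 18 of both, and p-values were adjusted by Benjamini-Hochberg with a threshold of 0.05. CPM is over the raw library total, and SE comes from the F statistic. Reads carry no molecular identifiers. Shares were compared by exact permutation. Named genes had a symbol and at least 5 CPM in the higher group without overlap, 12 per side, up to 3 per side at 2-fold or more, up to 4 of each of 33 lists at 1 CPM or more, and 4 per side for lines. Of 45478 identifiers, 43799 were in GENCODE release 29, the source of coordinates and GC content. Fits were tested on simulated data. The comparison, the lists and the named genes were chosen with earlier results of these data known. Alternatives were DESeq2 1.42.0, other scalings and filters, a replicate block, each library left out and, added after seeing the data, a lowess correction for GC.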

Additional observations from a re-analysis of the deposited data

Results flagged for a closer look

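These 13 genes are listed because the log2 change, durvalumab minus atezolizumab, differed between A498 parental and 786-O parental cells by a test of the difference itself over the 18 parental libraries (edgeR, adjusted p under 0.05). The difference, A498 minus 786-O, was 0.45 for TGM2, 0.50 for F3, 0.32 for AMIGO2, 0.37 for PPP1R15A and 0.56 for MFNG. It was -0.44 for SLC6A6, -0.43 for ZNF395, -0.56 for OPN3 and -0.85 for IMPA2. It was -0.83 for ID3, -0.84 for UQCRB-AS1, -0.63 for HES1 and -0.85 for LIPC. MFNG, ID3, UQCRB-AS1, HES1 and LIPC are here because they were among the 12 highest or 12 lowest genes of A498 cells, so their A498 values were chosen to be wide. In 786-O none of these 5 passed, at log2 changes of 0.04, 0.20, 0.32, 0.16 and 0.41. Each line has its own batch label, so line and batch cannot be told apart.

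PLAT, tissue plasminogen activator, and VAV3, a guanine exchange factor, also differed between the lines and were named outside the rule after their values were seen. PLAT had 34.2, 30.9 and 36.1 CPM with durvalumab and 26.1, 26.4 and 25.2 CPM with atezolizumab in A498 (log2 change 0.37) and was at -1.10 in 786-O, a difference of 1.48 ± 0.265 (edgeR adjusted p = 0.00334). VAV3 was at -0.41 in A498 and 1.52 in 786-O, a difference of -1.93 ± 0.318 (adjusted p = 0.014), and SPP1, osteopontin, was at -0.16 and 0.19, a difference of -0.34 (adjusted p = 0.000301). The A498 call of PLAT ended with the replicate block (edgeR adjusted p = 0.0709) and GC correction (0.0606). It also ended when durvalumab replicate 1 or 3 or any atezolizumab replicate was left out (0.124 to 0.211). Those of VAV3 and SPP1 each ended without durvalumab replicate 1, durvalumab replicate 3 or atezolizumab replicate 3 (0.0572 to 0.161).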

How the results depend on the processing

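The 515 calls of durvalumab against atezolizumab in A498 parental cells stayed within 1.5 times under other size factors (499), upper-quartile factors (496), no filter on low counts (738), a stricter filter (429), DESeq2 (400), the replicate block (388), a fit of the 6 libraries alone (666) and GC correction (579). They ranged from 115 to 462 when a library was left out. Durvalumab against avelumab, with 11 calls, gave 100 without the filter, 0 with the stricter filter, 5 with the replicate block, 1 with only the compared groups, 3 with GC correction and 0 to 136 when a library was left out. In 786-O parental cells, with 320 calls, there were 643 without the filter, 148 with the replicate block, 481 with GC correction and 104 to 536 when a library was left out. The difference between lines, with 157 calls, gave 289 without the filter, 92 with the replicate block and 64 to 220 when a library was left out. The share of counts from nuclear genes that are not protein coding differed by 0.00905 percentage points between the groups, and by -0.00586 to 0.0205 when a library was left out, the lowest without durvalumab replicate 1. The cause of these shifts was not tested. Deviations of same-numbered durvalumab and atezolizumab libraries from their group means correlated at 0.035, 0.015 and 0.025. With 3 libraries in a group, these low values cannot show whether the replicate numbers pair the libraries, and no label states it. Genes under the count filter carry too few reads to be described, and depth limits low genes such as those past 2-fold.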

Other observations

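Some wide differences did not pass the test, and these were picked after their values were seen. EGR1, an immediate early transcription factor, had 6.95, 5.38 and 3.23 CPM with durvalumab, against 1.02, 0.768 and 1.29 CPM with atezolizumab. Its groups did not overlap, but its libraries varied widely within the durvalumab group (log2 change 2.35 ± 0.621, edgeR adjusted p = 0.137). HNF4A, a hepatocyte and proximal tubule factor, had 3.87, 4.53 and 4.14 CPM with durvalumab, against 8.37, 5.31 and 11.8 CPM with atezolizumab (log2 change -1.05 ± 0.297, adjusted p = 0.153). Avelumab libraries had 4.38, 0.968 and 2.98 CPM of EGR1 and 4.95, 3.67 and 4.01 CPM of HNF4A. CCNL1 and CCNL2, cyclins that act in RNA splicing, rose by 0.19 and 0.51 in A498, where CCNL2 had 52.6, 51.2 and 51.3 CPM with durvalumab and 40.5, 31.6 and 36.0 CPM with atezolizumab. In 786-O they were at 0.30 each, of which CCNL1 passed (adjusted p = 0.0125) and CCNL2 did not (adjusted p = 0.136). The CCNL1 call in A498 ended without each single library (adjusted p 0.062 to 0.19), and CCNL2 reached an adjusted p of 0.0921. That of CCNL1 also ended with DESeq2 and the replicate block (adjusted p = 0.0809 and 0.0601). H2BC12, a histone gene, was the only call of 18 tested replication-dependent histone genes, at 0.28, where 1.78% of all genes were called higher.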
